A study of Homo sapiens with 4 samples.

Results

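The 9 genes described here encode EZH2 and its partners in Polycomb repressive complex 2 (PRC2): the core subunits EZH2, EZH1, EED, SUZ12, RBBP4 and RBBP7, and the accessory subunits JARID2, PHF19 and MTF2. They were chosen by name, and their 25 transcript rows were found through RefSeq accessions among 53209 rows for 25673 genes. RNA bound to streptavidin beads had been sequenced from DU-145 cells, an established androgen-independent line of human prostate carcinoma. In the biotin group (n = 2) the cells received 60 nM of mixed miR-26a duplexes that carried a 3′ biotin and a thiouridine at nucleotide 7 or nucleotide 17. In the control group (n = 2) the miR-26a duplex carried neither tag and was given at an equal dose. Transfection followed 24 h after seeding, and both groups were irradiated at 365 nm with 2 J/cm2, which crosslinks thiouridine to contacting RNA, before a bead incubation of 4 h. Both groups therefore held added miR-26a, and the comparison was between tagged and untagged recovery. Biotin and thiouridine were always present together, so their effects cannot be told apart.

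PRC2 places methyl groups on lysine 27 of histone H3, a mark of silenced genes. EZH2 and the related EZH1 carry the catalytic SET domain, EED reads the mark and stimulates the enzyme, SUZ12 is the scaffold, and RBBP4 and RBBP7 are histone-binding proteins shared with other chromatin complexes. JARID2, PHF19 and MTF2 bind the complex alternatively and help to bring it to chromatin. EZH2 is often raised in advanced prostate cancer and is among the best known targets of miR-26a, which pairs with a site in its 3′ untranslated region (UTR).

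The miR-26a sequence and the matches in PRC2 transcripts are shown because pairing through the seed, nucleotides 2 to 8 counted from the miRNA's 5′ end, is what the tagged duplex could use to hold an mRNA. The mature sequence from RefSeq (GRCh38.p14) is encoded at chr3:37969413-37969434 (plus strand) and chr12:57824658-57824679 (minus strand). Capitals mark the seed, and the sequence has U at nucleotide 7 and at nucleotide 17, the positions named for the thiouridines.
hsa-miR-26a-5p: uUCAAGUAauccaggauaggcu
The letters TACTTGA, complementary to the seed, were searched on the mRNA strand in GENCODE 29 3′ UTRs (GRCh38), together with ACTTGAA, which pairs with nucleotides 2 to 7 and has an A opposite nucleotide 1. The 2 motifs overlap, so ACTTGAA was counted only where no T precedes it. Each line below gives the 22 bases that end opposite nucleotide 1, with the matched bases in capitals.
EZH2 (chr7:148807389-148807410, minus strand): ctttgaataaagaaTACTTGAa
JARID2 (chr6:15521380-15521401, plus strand): taaattgttttaaaTACTTGAg
SUZ12 (chr17:31999743-31999764, plus strand): tgttttttttttttaACTTGAA
SUZ12 (chr17:31999990-32000011, plus strand): aatagagataagctgACTTGAA

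EZH2 held 1 match, and the base after it is an A, so that all of TACTTGAA was present. TACTTGA began at base 250 of a 3′ UTR of 261 bases and ended 5 bases before the annotated end of the searched transcript. The deposited EZH2 rows reach further past the match, to chr7:148807372. TACTTGA occurred in 11.9% of 9478 tested genes with a 3′ UTR, and in 2.08% of the 768 whose 3′ UTR was about as long as that of EZH2 (209 to 326 bases). The full match was present in 4 of 6 annotated coding transcripts of EZH2. JARID2 held 1 match to TACTTGA at base 1143 and 1 to ACTTGAA at base 459 of 1770, and 13.7% of tested genes with a 3′ UTR of 1416 to 2212 bases held TACTTGA. SUZ12 held only the 2 matches to ACTTGAA, at bases 755 and 1002 of 2042. TACTTGA or ACTTGAA was present in 22% of all searched genes. For 3′ UTRs about as long as that of SUZ12 (1634 to 2552 bases) the share was 32.4%. For the lengths given for JARID2 it was 26.4%. Neither motif was found in the transcripts searched for EZH1, EED, RBBP4, RBBP7, PHF19 and MTF2. The 3′ UTR searched had only 99 bases for PHF19 and 211 bases for EED. Their longest annotated 3′ UTRs, of 2292 and 740 bases, lacked TACTTGA but were not searched for ACTTGAA. For RBBP4 the searched transcript had 1674 bases and a 3′ UTR of 335 bases. The deposited row that held all RBBP4 FPKM is far longer, at 7843 bases. The RBBP4 coding transcript with the longest 3′ UTR, 6506 of its 7943 bases, held 1 match to TACTTGA. Whether the deposited row holds that match was not searched, so RBBP4 cannot be counted as lacking it. A match is a description of letters and not a measured binding site.

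The libraries held an estimated 16030000 to 23640000 mapped reads. The epithelial keratin gene KRT8 was at 23.5 and 20.7 FPKM in the biotin libraries and at 22.7 and 29.2 FPKM in the control libraries. FPKM is fragments mapped per kilobase of transcript, scaled to library depth. The groups of KRT8 overlapped, but in KRT18, KRT19 and KRT7 both biotin values lay below both control values. KRT18 was at 45.1 and 50.0 FPKM in biotin libraries against 61.5 and 65.0 FPKM in control libraries. KRT7 was at 60.2 and 74.3 FPKM against 76.4 and 84.1 FPKM, and KRT19 at 51.5 and 50.4 FPKM against 51.8 and 74.3 FPKM. None of these keratins was called, and KRT5 was listed at 0 in every library. The luminal prostate gene KLK3 was listed at 0 in all 4, and so was the leukocyte gene PTPRC. Of 8 stromal marker genes 0 reached the expression filter. Summed over 11 epithelial markers the FPKM was 1106 and 943 in the biotin libraries and 1969 and 1799 in the control libraries, with EGFR and CD44 called higher and S100A6 called lower. Without S100A6 the other 10 summed to 273.7 and 297.5 FPKM in biotin libraries and 246.9 and 289.9 FPKM in control libraries. These sums overlapped, but opposite differences met in them. EGFR was at 31.6 and 37.3 FPKM in the biotin libraries, against 15.9 and 16.7 FPKM in the control libraries. CD44 was at 53.9 and 59.3 FPKM against 10.8 and 13.8 FPKM, while KRT7, KRT18 and KRT19 were lower, as given above. Of 7 neuroendocrine markers 4 were listed at 0 in all libraries and the sum was 7.90 and 7.21 in the biotin libraries and 3.83 and 5.19 in the control libraries. Nearly all of it was ENO2, called higher, at 7.76 and 7.14 FPKM in the biotin libraries and 3.67 and 5.03 FPKM in the control libraries. Of 7 blood cell markers 4 were at 0 in all, and the sums were 3.22 and 1.93 in biotin libraries against 2.35 and 1.88 in control libraries, with CD14 called higher and CD74 called lower. For 7 luminal markers, again with 4 at 0, they were 2.97 and 3.26 in biotin libraries against 4.43 and 3.76 in control libraries. The part of these differences in the results below was not tested. With 2 libraries a group, the smallest two-sided p an exact permutation test allows is 0.333, so the adjusted p-values rest on a spread that limma pools over all tested genes. In bulk RNA from beads, less RNA per cell, fewer cells holding the RNA and lower recovery cannot be told apart.

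EZH2, the catalytic subunit, was not recovered at a higher level with the tagged miRNA. Its FPKM was 1.90 and 1.44 in the biotin libraries, against 2.04 and 2.51 in the control libraries. Both biotin values lay below both control values, so the groups did not overlap. The means were 1.67 ± 0.326 and 2.28 ± 0.334 FPKM (SD, n = 2 each), and the log2 fold change of FPKM + 1 was -0.30 ± 0.16 (SE), with a 95% interval of -0.69 to 0.10. The difference did not pass the threshold (adjusted p = 0.227, limma, Benjamini-Hochberg over all tested genes). The level rested on an estimated 90.4 and 91.7 reads in the biotin libraries and 88.5 and 121.4 reads in the control libraries. Within all tested genes, 29.8% had a lower fold change than EZH2.

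EZH1, the second methyltransferase of the family, was at 0.999 and 1.13 FPKM in the biotin libraries and at 1.71 and 1.55 FPKM in the control libraries. The groups did not overlap, and the log2 fold change was -0.35 ± 0.14 (SE), with an unadjusted p of 0.0459 and an adjusted p of 0.119 (limma). The ratio of EZH2 to EZH1 FPKM was 1.90 and 1.28 in the biotin libraries, against 1.19 and 1.62 in the control libraries, so the 2 groups overlapped in this ratio. The FPKM of EZH1 lay below its own deposited interval in all 4 libraries. With interval midpoints in place of FPKM the ratio was 0.698 and 0.431 in the biotin libraries, against 0.569 and 0.603 in the control libraries, so which of the 2 genes was higher depends on the quantity used. The gene lies at chr17:42700275-42745053 in hg38, and EZH2 at chr7:148807372-148884349.

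EED, which binds the methylated histone tail, was at 1.64 and 2.17 FPKM in the biotin libraries, against 2.35 and 2.35 FPKM in the control libraries. The control libraries were almost equal, and both biotin values lay below them. The log2 fold change was -0.21 ± 0.15 (SE, adjusted p = 0.347, limma). A further row, NM_152991, has exactly the coordinates of the EED row (chr11:86244764-86278743) but no symbol in the reference tables used. With this row added, the values became 2.11 and 2.78 FPKM in the biotin libraries and 2.87 and 2.67 FPKM in the control libraries, and the groups overlapped.

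SUZ12, the scaffold subunit, was at 6.02 and 4.80 FPKM in the biotin libraries and at 5.47 and 4.55 FPKM in the control libraries. The groups overlapped, and the log2 fold change of 0.09 ± 0.17 (SE) had an adjusted p of 0.731 (limma) and a 95% interval of -0.33 to 0.51. A partial copy of the gene, SUZ12P1, was at 1.83 and 2.23 FPKM in the biotin libraries and at 2.52 and 2.21 FPKM in the control libraries. How reads shared by the copies were divided is not given in the sources used here.

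RBBP7 was the only 1 of the 9 genes that passed the threshold, and it fell. Its FPKM was 12.7 and 11.9 in the biotin libraries, against 19.9 and 19.5 in the control libraries. The groups lay far apart relative to their spread, at 12.3 ± 0.542 and 19.7 ± 0.252 FPKM (SD, n = 2 each). The log2 fold change was -0.64 ± 0.16 (SE, adjusted p = 0.0379, limma), and 9.42% of tested genes had a lower value. RBBP7 lost the call whichever of the 4 libraries was omitted: the adjusted p then lay between 0.112 and 0.147 (limma) and the log2 fold change between -0.68 and -0.60.

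RBBP4, the close relative of RBBP7, was at 5.13 and 5.32 FPKM in the biotin libraries and at 5.69 and 6.59 FPKM in the control libraries. The groups did not overlap, but the difference was small, with a log2 fold change of -0.19 ± 0.15 (SE, adjusted p = 0.382, limma). The ratio of RBBP7 to RBBP4 FPKM was 2.47 and 2.23 in the biotin libraries, against 3.49 and 2.96 in the control libraries. RBBP7 was thus above RBBP4 in every library, and the ratio was lower in both biotin libraries. With interval midpoints it was 1.42 and 1.40 in the biotin libraries, against 2.01 and 1.83 in the control libraries. The difference between the fold changes of RBBP7 and RBBP4 was not tested. RBBP7 lies at chrX:16844652-16870411 and RBBP4 at chr1:32651358-32686211. Single reads of 50 bases could in part match both paralogues.

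**Figure D1:**
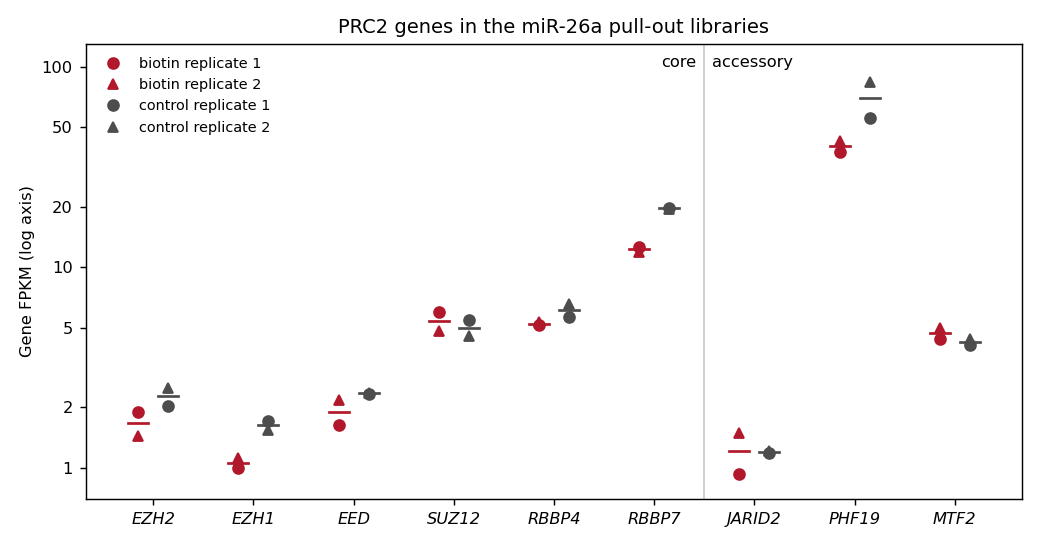
Gene FPKM (log axis) of the 9 PRC2 genes in each library, with biotin libraries in red to the left of control libraries in grey, circles for replicate 1, triangles for replicate 2 and lines for group means. The biotin points of RBBP7 (12.7 and 11.9) and PHF19 (37.8 and 42.8) lie below their control points, while those of SUZ12 and JARID2 lie on both sides of at least 1 control point.

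PHF19, which reads methylated lysine 36 of histone H3 and brings PRC2 to such chromatin, had the highest level of the 9 genes and the lowest fold change. Its FPKM was 37.8 and 42.8 in the biotin libraries, against 55.8 and 83.5 in the control libraries. The groups did not overlap, but the control libraries differed from each other by more than the distance between the groups' nearest values. The means were 40.3 ± 3.53 and 69.7 ± 19.6 FPKM (SD, n = 2 each). The log2 fold change of -0.75 ± 0.25 (SE) did not pass the threshold (adjusted p = 0.0737, limma), and it was -0.46 without control replicate 2 and -1.04 without control replicate 1. With upper-quartile scaling the adjusted p was 0.0377 and with the midpoint of the deposited interval in place of FPKM it was 0.0484 (limma).

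Almost all of the PHF19 level came from 1 short transcript row, NM_001009936, of 990 bases at chr9:120869573-120877328. This row made up 95.6% and 96.3% of the gene's FPKM in the biotin libraries and 97.0% and 98.0% in the control libraries. It rested on an estimated 629.7 and 966 reads in the biotin libraries and 863.5 and 1449 reads in the control libraries. The row of 4289 bases, NM_015651, was listed at 0 in all 4 libraries.

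MTF2, a relative of PHF19 that binds unmethylated CpG-rich DNA, was at 4.40 and 4.96 FPKM in the biotin libraries and at 4.11 and 4.39 FPKM in the control libraries. It was the only 1 of the 9 with both biotin values above both control values, and the nearest values, 4.40 FPKM in biotin replicate 1 and 4.39 FPKM in control replicate 2, were almost equal. The log2 fold change was 0.11 ± 0.15 (SE, adjusted p = 0.601, limma).

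JARID2, which binds nucleosomes and tethers PRC2, was at 0.929 and 1.49 FPKM in the biotin libraries and at 1.18 and 1.22 FPKM in the control libraries. The biotin values lay on either side of the control values. The log2 fold change was 0.00 ± 0.17 (SE, adjusted p = 0.986, limma), and its 95% interval of -0.43 to 0.42 leaves room for moderate differences in both directions. JARID2, which like EZH2 has TACTTGA in its 3′ UTR, was thus at nearly the same mean in both groups, 1.21 ± 0.40 FPKM in biotin libraries and 1.20 ± 0.022 FPKM in control libraries (SD, n = 2 each).

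All 9 genes passed the filter of at least 1 FPKM in at least 2 libraries and entered the test. Of the 9, 0 were called higher and 1 lower, RBBP7 (limma, adjusted p below 0.05). Over all 9938 tested genes 22.5% were called, 13.2% higher and 9.35% lower, so 1 of 9 lower is near the background. At an unadjusted p below 0.05, EZH1, RBBP7 and PHF19 were lower, against 19.8% of all tested genes lower and 39.4% in either direction. In 6 of the 9 both biotin libraries lay below both controls, namely EZH2, EZH1, EED, RBBP4, RBBP7 and PHF19, and in 1 they lay above. Among all tested genes both lay below in 37.7% and above in 29.4%, together 67.1%. The groups of EED overlapped with the unnamed row at its locus added or with interval midpoints, and those of MTF2 with midpoints. The median log2 fold change was -0.21 over the 9 genes and -0.06 over all tested genes. The direction of SUZ12, JARID2 and EED was not stable across the alternatives tried: SUZ12 was negative without biotin replicate 1 or control replicate 2, JARID2 positive under 4 alternatives, and EED positive with interval midpoints.

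**Figure D2:**
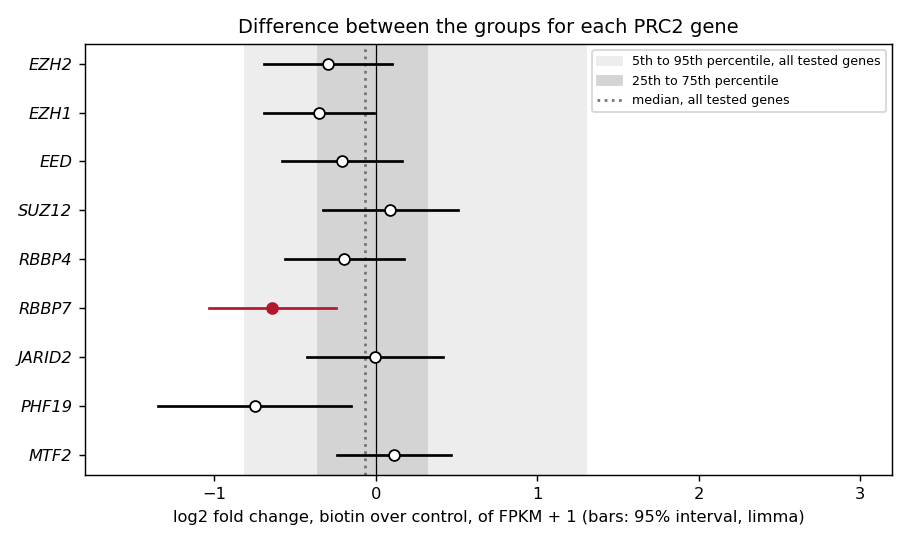
Log2 fold change of FPKM + 1, biotin over control, for each PRC2 gene with its 95% interval from limma, over shaded bands for the spread of all 9938 tested genes. Only RBBP7, filled in red at -0.64, passed the adjusted threshold, and each of the 9 points lies between the 5th percentile (-0.81) and the 95th percentile (1.30) of all tested genes.

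The PRC2 genes were ordered by their deposited FPKM. PHF19 was highest and RBBP7 second in every library, without overlap with each other or with the rest. RBBP4, SUZ12 and MTF2 followed between 4.11 and 6.59 FPKM. In this group SUZ12 overlapped both neighbours, while RBBP4 was above MTF2 in every library. EZH2 and EED overlapped, at 1.44 to 2.51 and 1.64 to 2.35 FPKM, and EZH1 and JARID2 overlapped as well and were lowest in 3 of the 4 libraries. In biotin replicate 2 JARID2, at 1.49 FPKM, was above EZH2, so the ranges of EZH2, EZH1 and JARID2 were not separate. With interval midpoints PHF19 was still highest in every library, but SUZ12 was above RBBP7 in biotin replicate 1, at 13.6 against 12.7, and their ranges overlapped. EZH1 was then at 2.73 and 3.35 in the biotin libraries and at 3.59 and 4.17 in the control libraries, above EZH2 in every library. EZH2 stood at percentiles 21.7 and 13.2 of the tested genes in the biotin libraries and at percentiles 24.4 and 30.4 in the control libraries. Its level in the RNA from beads was thus among the lower ones, and its abundance in the cells was not measured. RBBP7 stood at percentiles 79 and 78.6 in the biotin libraries, against 88.6 and 86.9 in the control libraries.

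The deposited tables also gave each transcript variant a row, and the division of a gene's FPKM among variants changed between libraries. In both control libraries all EZH2 FPKM was on NM_001203247. In biotin replicate 1 that row held 1.04 FPKM and NM_001203248 held 0.864 FPKM. In biotin replicate 2 it held 0.957 FPKM, with 0.271 FPKM on NM_001203249 and 0.214 FPKM on NM_152998. The leading row alone was therefore at 1.04 and 0.957 FPKM in the biotin libraries, against 2.04 and 2.51 FPKM in the control libraries. Its log2 fold change was -0.71 ± 0.18 (SE, adjusted p = 0.129 over 12003 tested rows, limma). The 5 EZH2 rows are similar in length, at 2591 to 2723 bases, and the division rests on few reads, an estimated 17.2 on NM_001203249 and 13.1 on NM_152998 in biotin replicate 2.

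JARID2 and MTF2 showed the same kind of redistribution within groups. NM_004973 held 28.1% and 78.5% of JARID2 FPKM in the biotin libraries and 76.5% and 100% in the control libraries. NM_007358 held 100% and 67.6% of MTF2 FPKM in the biotin libraries and 83.3% and 59.1% in the control libraries. RBBP4 and RBBP7 had all their FPKM on 1 row each, NM_001135256 and NM_002893. Of the 25 rows 7 were listed at 0 in all libraries and 10 passed the filter. Of these 10 rows 0 were called in limma, against 3.98% of all tested rows (2.80% higher and 1.18% lower). An unadjusted p below 0.05 (limma) was reached by 3: NM_001203247 of EZH2, NM_002893 of RBBP7 and NM_001009936 of PHF19. How many of all tested rows reached it was not counted, so these 3 rows have no background share. The 39.4% of all tested genes that did so came from a separate fit and cannot stand in for it.

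**Figure D3:**
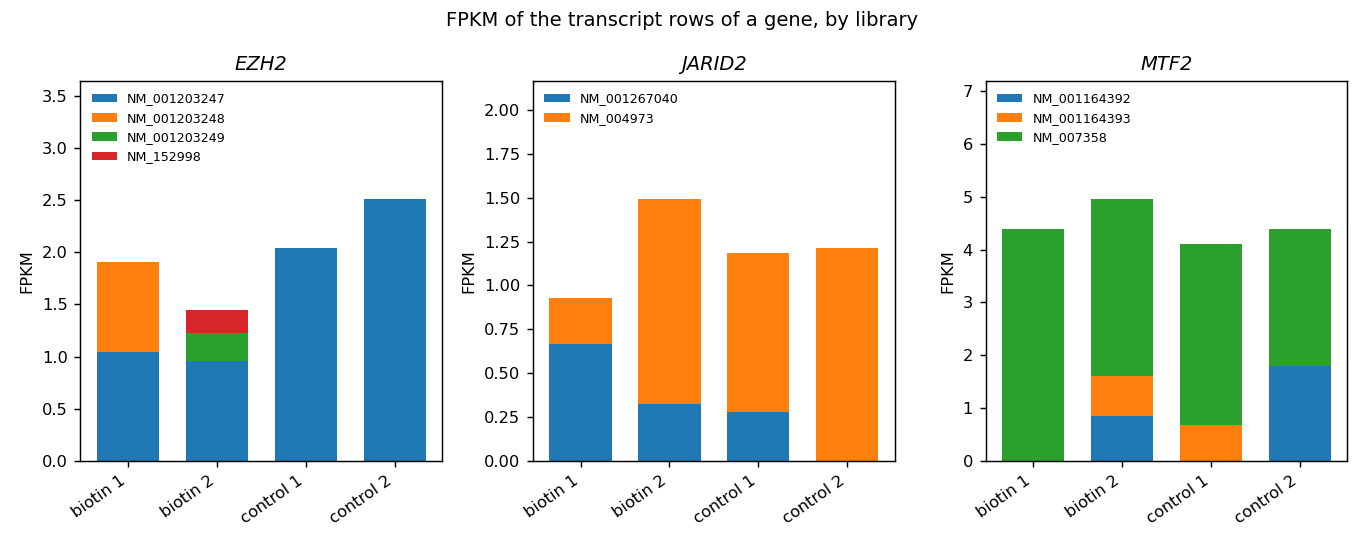
FPKM of each transcript row above 0 for EZH2, JARID2 and MTF2, stacked by library with biotin libraries to the left of control libraries. EZH2 used the single row NM_001203247 in both control libraries (2.04 and 2.51 FPKM), while that row held 54.6% and 66.4% of its total in the biotin libraries.

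For several PRC2 genes the deposited FPKM did not lie inside the confidence interval deposited with it. This held for 17 of the 52 member values above 0 in single rows and libraries, and for all 4 libraries of EZH1, SUZ12 and RBBP4. SUZ12 was at 6.02 FPKM in biotin replicate 1 with an interval of 12.6 to 14.7, and at 5.47 FPKM in control replicate 1 with an interval of 10.9 to 13.1. The interval midpoint was 2.20 to 2.31 times the FPKM of SUZ12 in every library, so its comparison between groups hardly moved. EED differed: the value of 2.17 FPKM in biotin replicate 2 had an interval of 4.37 to 6.34, while in the other 3 libraries the FPKM lay inside. With midpoints in place of FPKM, EED was at 1.64 and 5.35 in the biotin libraries, against 2.35 and 2.35 in the control libraries, and its log2 fold change was 0.29 ± 0.37 (SE, adjusted p = 0.594, limma). EZH2, RBBP7, JARID2 and MTF2 lay inside their intervals for every row above 0. For EZH1, SUZ12 and RBBP4 the midpoint was 1.60 to 2.97 times the FPKM, and the order of levels differed between the quantities as given above.

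**Figure D4:**
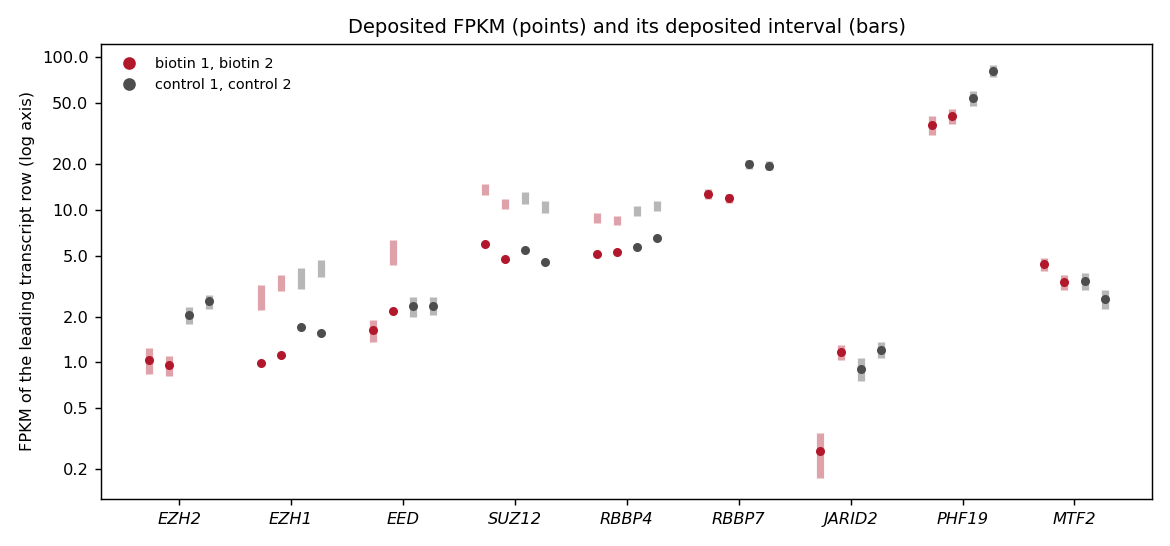
Deposited FPKM (points) and deposited interval (bars) on a log axis for the leading transcript row of each PRC2 gene, with biotin libraries in red to the left of control libraries in grey. Points of EZH1, SUZ12 and RBBP4 lie below their bars in all 4 libraries, and EED does so only in biotin replicate 2 (2.17 FPKM against 4.37 to 6.34).

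The 3 tested genes whose pattern was most like that of EZH2, by Euclidean distance in log2(FPKM + 1) over the 4 libraries, were WBP11 (0.078), THAP1 (0.105) and TMA16 (0.133). WBP11, a splicing-associated protein gene, was at 1.88 and 1.33 FPKM in the biotin libraries and at 2.11 and 2.54 FPKM in the control libraries. The 3 genes were picked as the nearest of 9937 compared, and distances over 4 libraries describe likeness of level as much as of pattern.

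Genes with the site were also counted over the whole table. Of 512 tested genes with TACTTGAA in the 3′ UTR, the form present in EZH2, 15.6% were called higher and 3.71% lower in the biotin libraries, with a median log2 fold change of -0.02. Over all 9478 searched genes 13.1% were higher and 9.45% lower, with a median of -0.07. Of the 15 other genes with TACTTGA in a 3′ UTR about as long as that of EZH2, 2 were higher and 3 lower. These counts carry no test, and 3′ UTR length differs between the sets.

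Other Polycomb genes were read from lists written from general knowledge. Of the 3 further accessory genes that were tested, LCOR, LCORL and AEBP2, 0 were called by limma and 0 had an unadjusted p below 0.05. LCOR was at 4.04 and 4.13 FPKM in the biotin libraries and at 3.92 and 4.40 FPKM in the control libraries. EPOP was listed at 0. PRC1, the second Polycomb complex, ubiquitinates histone H2A. Of its 14 tested genes 3 rose and 1 fell, with a median log2 fold change of -0.13, against 13.2% higher and 9.35% lower over all genes. PCGF5, a RING-finger partner of the catalytic subunit, was at 12.7 and 10.8 FPKM in the biotin libraries, against 5.40 and 6.56 FPKM in the control libraries (log2 fold change 0.87 ± 0.18, adjusted p = 0.0205, limma). PHC2, a polyhomeotic subunit, rose by 0.77 ± 0.19, and L3MBTL2, a reader protein of a PRC1 variant, by 0.76 ± 0.19.

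Enzymes that remove the mark and the H2A deubiquitinase complex PR-DUB had 8 tested genes, of which 2 rose, 0 fell and 6 did not pass, against 13.2% higher and 9.35% lower over all tested genes. FOXK1, a forkhead factor bound by PR-DUB, was at 6.91 and 5.15 FPKM in the biotin libraries, against 2.17 and 2.65 FPKM in the control libraries (log2 fold change 1.04 ± 0.18, adjusted p = 0.0131, limma). HCFC1, a cofactor of the same complex, rose by 0.78 ± 0.20.

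RBBP4 and RBBP7 also serve in complexes for histone deacetylation, chromatin assembly and nucleosome sliding. Of 19 tested genes of these complexes 1 rose, 2 fell and 16 did not pass, with a median of 0.03. Over all tested genes 13.2% were higher and 9.35% lower, with a median of -0.06. MTA2, a subunit of the deacetylase complex NuRD, was at 23.1 and 23.4 FPKM in the biotin libraries, against 8.95 and 8.59 FPKM in the control libraries (log2 fold change 1.31 ± 0.16, adjusted p = 0.00419, limma). The nucleosome-sliding ATPase SMARCA5 fell by 0.70 on the log2 scale and the Sin3-associated SAP18 by 0.62. With interval midpoints SMARCA5 turned to 0.25 and was not called, and SAP18 lost its call at -0.55 (adjusted p = 0.0538, limma). Both also lost their calls with the replicate block (adjusted p = 0.05002 for SMARCA5 and 0.0517 for SAP18, limma) and without a filter (adjusted p = 0.0536 for SMARCA5 and 0.0911 for SAP18, limma).

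Among 19 tested genes of other SET-domain histone methyltransferases 2 rose, 1 fell and 16 did not pass, near or below the shares over all tested genes (13.2% higher and 9.35% lower). Their median was -0.18, against -0.06 over all tested genes. SETD2, the enzyme that trimethylates lysine 36 of histone H3, had the largest change of all these lists. It was at 20.5 and 20.3 FPKM in the biotin libraries, against 3.21 and 3.28 FPKM in the control libraries, a log2 fold change of 2.33 ± 0.15 (adjusted p = 0.000613, limma). NSD3, another lysine 36 methyltransferase, rose by 0.60 ± 0.15, and SMYD2 fell by 0.78 on the log2 scale. Of 11 tested genes that have been reported as repressed by EZH2 in cancer cells, 2 rose, 1 fell and 8 did not pass, with a median of -0.05 and the same 13.2% and 9.35% over all tested genes. PEBP1, an inhibitor of RAF kinase, rose by 1.19 ± 0.26 and RUNX3, a transcription factor, by 0.84 ± 0.16. When each of the 4 libraries was omitted in turn, SETD2 kept its call in 4 fits, MTA2 in 2 and FOXK1 in 1, and the 12 other called genes of these lists outside PRC2 in 0.

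**Figure D5:**
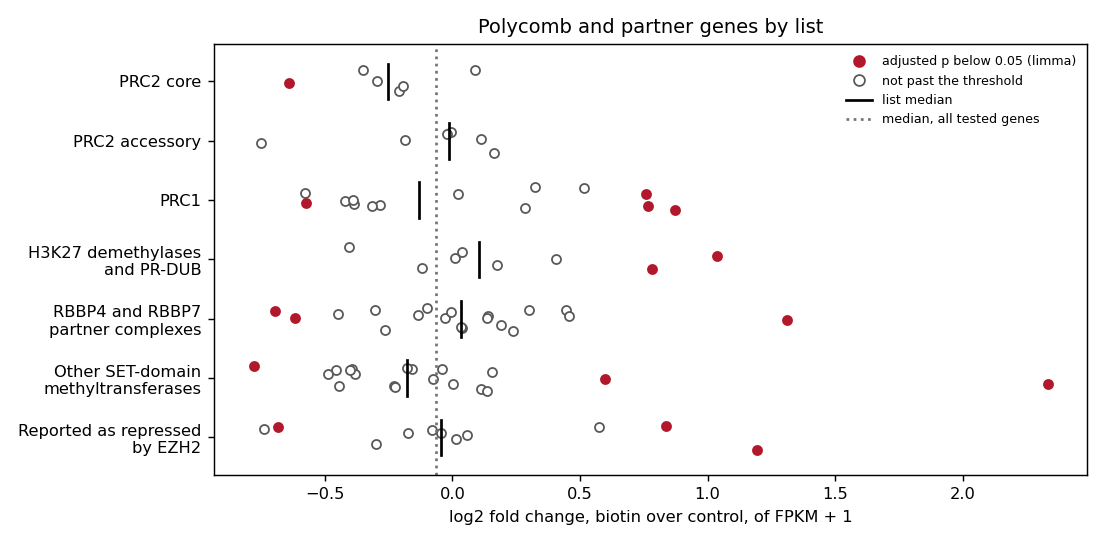
Log2 fold change of FPKM + 1, biotin over control, for the tested genes of 7 lists, filled in red where the adjusted p from limma was below 0.05, with a black line at each list median and a dotted line at the median of all tested genes (-0.06). The PRC2 core has its 1 call at RBBP7, and the rightmost point is SETD2 at 2.33.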

How the data were processed

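Build hg38 is named in the submitters' processing notes, as are Cufflinks 2.1.1, Cuffdiff, TopHat2 2.0.9, cutadapt and FastQC 0.10.1. The sources used here give no settings, annotation or strand handling. The authors deposited 1 table per library with FPKM, its interval bounds and the coverage signal of each transcript. Per the file headers they also hold transcript lengths and no other unit. Of 46699 accessions 98.6% received a symbol from RefSeq or GENCODE 29 tables. FPKM was summed per gene. Short structured RNAs and 22 genes with a failed or excess-data row were left out. Reads were estimated as coverage times length over 50 bases, and mapped reads from coverage over FPKM.

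Tests used limma 3.58.1 (R 4.3.3, variance trend, two-sided) on log2(FPKM + 1), which understates changes of low genes, for genes reaching 1 FPKM in 2 libraries, with a threshold of 0.05 on the adjusted p. There were 2 residual and 4.21 prior degrees of freedom. The procedure was tested on simulated data with changes of 2 and 3 on the log2 scale, larger than those of the PRC2 genes. It therefore does not show how well differences as small as theirs are found. The replicates are described as biological, without further detail. The 9 genes and all lists were chosen with earlier results of these data known. Named were all 9 genes, every called gene of a list with 6 or fewer calls (without calls, those of highest mean FPKM) and the 3 genes nearest to EZH2. A few genes that this rule selects are not reported here. AEBP2, LCORL, EPOP and the marker genes were added after values were seen. Counting error only is covered by read estimates.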

Additional observations from a re-analysis of the deposited data

How the results depend on the processing

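Alternatives were pseudocounts of 0.1 and 5, no filter, upper-quartile and median-of-ratios scaling, no variance trend, a replicate block, each library left out and the leading transcript row alone. Interval midpoints and the unnamed row added to EED were chosen after seeing the data. EZH2 was below 0 in each of these and never called, between -0.13 (pseudocount 5) and -0.71 (leading row), and between -0.42 and -0.17 with a library left out.

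No alternative called a PRC2 gene higher. The number called lower was 2 with upper-quartile scaling and with interval midpoints (RBBP7 and PHF19), 0 without a filter, 0 with the replicate block and 0 to 0 with a library left out. RBBP7 had an adjusted p of 0.0580 without a filter, 0.0683 with the block and 0.0933 as a single row (limma). SUZ12 turned to -0.048 and -0.021 without biotin replicate 1 and control replicate 2, in a range of -0.048 to 0.23 over the libraries left out. JARID2 turned to 0.18 and 0.0057 in the same fits, in a range of -0.19 to 0.18, to 0.0011 with a pseudocount of 5 and to 0.037 with median-of-ratios scaling. With midpoints EED turned to 0.29 and SMARCA5 to 0.25. Of the 15 called genes of the other lists, markers left aside, 13 lost the call without a filter, where only MTA2 and SETD2 kept it. The call was lost by 7 with the replicate block, 3 with midpoints and 1, HCFC1, with upper-quartile scaling. The increases of PHC2, NSD3 and PEBP1 were among those lost with the block, beside decreases such as SMARCA5, SAP18 and SMYD2. The causes were not tested.

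Over all genes, 1308 were called higher and 929 lower. Without a filter, which raises the number tested to 16104, these were 653 and 231, and the replicate block gave 1078 and 535. Leaving out a library gave 203 to 674 higher and 33 to 219 lower. Increases made up 58.5% of calls, 46.9% with upper-quartile and 66.2% with median-of-ratios scaling. Whether equal replicate numbers mark libraries prepared together is not given. The difference between replicates 1 and 2 correlated at r = 0.003 between groups across genes. No broad shared shift was thus visible, but this cannot settle whether the libraries are paired. Low read numbers limit EZH2, EZH1, EED and JARID2.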

Other observations

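The mismatch between deposited FPKM and deposited interval was not particular to PRC2. Of rows above 1 FPKM, 33.0% and 34.3% in the biotin libraries and 31.3% and 32.3% in the control libraries lay outside their own interval. Of 8120 rows above 1 FPKM in all 4 libraries, 2721 lay outside in all 4, 1461 of them below the interval and 1256 above it in every library. Another 976, or 12.0%, lay outside in 1 to 3 libraries, as EED did, and for these a comparison of groups depends on which deposited quantity is used. Why the quantities differ was not tested.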
